A study of Mus musculus with 4 samples.

Results

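Red blood cells leave a strong RNA signal in any embryonic tissue that holds blood, and 9 genes that they use were compared here between the dorsal part and the ventral part of the mouse tracheoesophageal anlage. These were the embryonic globin genes *Hba-x*, *Hbb-y* and *Hbb-bh1*, the adult globin gene *Hba-a1*, and the erythroid genes *Alas2*, *Klf1*, *Slc4a1*, *Epor* and *Ahsp*. Their probe sets were those to which the annotation of the array gives one of these symbols alone, which left 14 of the 45101 probe sets and 8 of the 9 genes. *Ahsp*, which encodes a chaperone of alpha globin, had no probe set under this rule and was not analysed here. *Hbb-y*, *Hbb-bh1* and *Slc4a1* had 3 probe sets each and the other 5 genes had 1 each.

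The dorsal and ventral parts came from BALB/c embryos at about E9.75, for which the labels name no mutation and no agent. At that age the anlage is still a single foregut tube, with the lung bud on its ventral side. Each part was cut by hand and measured on 2 Affymetrix arrays, labelled as biological replicates. Separate litters or pools are not stated for them, so p-values reflect the spread of these arrays alone, which may be technical. Each part holds epithelium, mesenchyme and whatever blood lay in its vessels, and no step to remove blood is described.

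At this stage the circulating red cells of the mouse are primitive erythroblasts from the yolk sac, which still carry nuclei and make RNA. They fill with hemoglobin of embryonic type, built from the zeta chain (*Hba-x*) or the adult alpha chains and from the beta-like chains epsilon-y (*Hbb-y*) and beta-h1 (*Hbb-bh1*). Adult beta globin belongs mainly to the definitive red cells that the fetal liver makes later.

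Values are RMA values on a log2 scale, so that a difference of 1 means a 2-fold change, and differences are dorsal minus ventral. Testing with limma took in the probe sets that 2 or more arrays placed above their 40th percentile. A probe set passed the test at a p below 0.05 after Benjamini-Hochberg adjustment over all 23336 tested probe sets. Of these, 5.84% passed, 3.28% as higher dorsally and 2.56% as higher ventrally, and in 31.8% both dorsal values lay above both ventral values. Ventral replicate 2 stood apart, since its upper quartile of 7.75 was below the 8.02 of ventral replicate 1, and the ventral replicates differed by a median of 0.27 where the dorsal ones differed by 0.08. The labels were checked with *Wnt4*, a Wnt ligand of dorsal mesenchyme (difference 2.47), and with *Wnt2*, a Wnt ligand of lung mesenchyme (-2.73). A paper that cites these arrays for *Wnt4* in esophageal mesenchyme also showed it there by in situ hybridization, in older embryos. Because that paper cites these arrays for *Wnt4*, they alone are no independent check of it. All 8 probe sets of 6 foregut epithelial genes were in the tested range. With 2 arrays a part, 0.333 is the smallest two-sided p of an exact permutation test, so none was used for a call.

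Most of the member genes that could be tested were higher in the dorsal part. Of the 12 member probe sets in the tested range, 7 passed as higher dorsally, from 6 genes (*Hba-x*, *Hbb-y*, *Hbb-bh1*, *Alas2*, *Klf1* and *Slc4a1*), where 3.28% of all tested probe sets did so. None passed as higher ventrally by limma (2.56% of all did), and none had an unadjusted p below 0.05 in that direction. The members were chosen with earlier results of these data known, so these counts describe them and are no independent test. In 11 of the 12 both dorsal values exceeded both ventral ones, which held for 31.8% of all tested probe sets, and the exception was *Epor*. Among the 37 other tested probe sets within 1 log2 unit of the highest value on every array, it held for 18. The median difference of the 12 was 0.80, beside 0.08 for all tested probe sets. The median for all was -0.003 without ventral replicate 2 and 0.19 without ventral replicate 1. All 12 exceeded the 40th percentile on all 4 arrays, so none entered through its dorsal values alone. In whole tissue, fewer red cells and less of an RNA per red cell cannot be told apart. Without dorsal replicate 1 the count was 3 (*Alas2*, *Klf1* and 1 probe set of *Slc4a1*), and without the other arrays in turn it was 5 to 10. The 10 came without ventral replicate 1, where 6739 of all 22914 tested probe sets passed as higher dorsally.

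**Figure D1:**
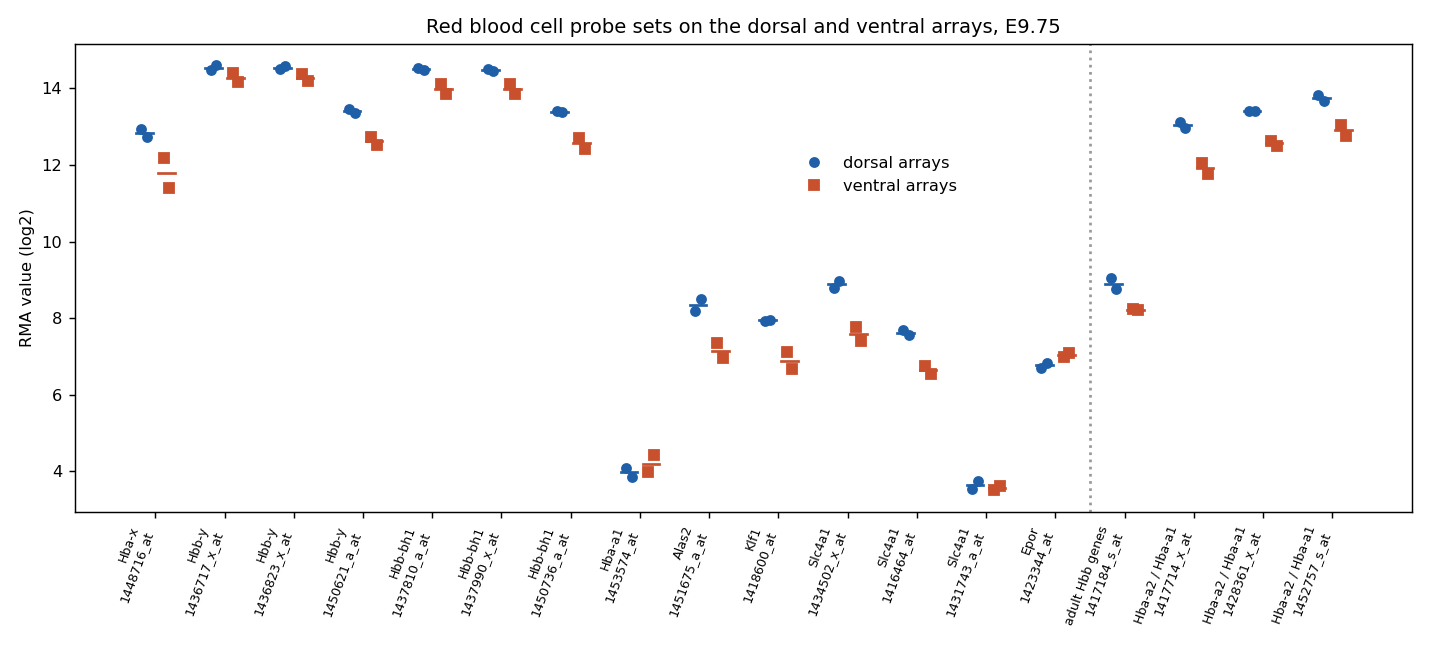
RMA values (log2, vertical axis) of the 14 member probe sets and, right of the dotted line, of the 4 probe sets shared by several adult globin genes, on the 2 dorsal (circles) and 2 ventral (squares) arrays at E9.75, with short lines at the means. The dorsal values lie above the ventral ones for the embryonic globins, *Alas2*, *Klf1* and the shared adult globin probe sets, below them for *Epor*, and overlap with them for *Hba-a1* (near 4) and the lowest *Slc4a1* probe set.

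*Hba-x* encodes zeta globin, the embryonic alpha-like chain. Its probe set 1448716_at had values of 12.95 and 12.72 on the dorsal arrays, against 12.19 and 11.40 on the ventral arrays. The dorsal values did not overlap with the ventral ones, and the ventral ones lay further apart than those of any other member that passed. The difference was 1.04 (standard error 0.24, 2.06-fold, adjusted p = 0.0297 from limma). It was 0.64 without ventral replicate 2 and 0.92 without dorsal replicate 1, and in neither case did it pass the test. It did not pass without a filter or with the quantiles of the arrays set equal once more (0.92), and the alternatives gave adjusted p-values between 8.22e-07 and 0.12.

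*Hbb-y* encodes the epsilon-y chain, and its 3 probe sets did not give the same size of difference. Probe set 1450621_a_at had 13.45 and 13.36 on the dorsal arrays, against 12.74 and 12.53 on the ventral arrays, a difference of 0.77 (standard error 0.17, 1.71-fold, adjusted p = 0.0201 from limma). Probe set 1436717_x_at had 14.48 and 14.60 dorsally, against 14.39 and 14.18 ventrally, and 1436823_x_at had 14.51 and 14.58, against 14.37 and 14.19. All 3 were higher on both dorsal arrays, but the brighter ones differed by only 0.26 each, with 95% intervals of -0.11 to 0.63 and -0.10 to 0.63, and did not pass the test (adjusted p = 0.516 and 0.494 from limma). Without ventral replicate 1, 1436823_x_at passed (0.35, adjusted p = 0.0448 from limma).

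*Hbb-bh1* encodes the beta-h1 chain and showed the same split. Probe set 1450736_a_at had 13.42 and 13.37 on the dorsal arrays, against 12.71 and 12.43 on the ventral arrays, a difference of 0.83 (standard error 0.17, 1.77-fold, adjusted p = 0.0156 from limma). Its brighter probe sets were at 14.54 and 14.47 dorsally, against 14.12 and 13.85 ventrally (1437810_a_at), and at 14.49 and 14.46, against 14.11 and 13.86 (1437990_x_at). The values of the parts did not overlap there either. The differences of the brighter probe sets were 0.52 and 0.49, with 95% intervals of 0.15 to 0.90 and 0.12 to 0.87, and these did not pass the test (adjusted p = 0.128 and 0.149 from limma). Both passed with an eBayes trend (adjusted p = 0.00945 and 0.0114 from limma) and without ventral replicate 1 (0.0198 and 0.0199). The probe sets of *Hbb-y* and *Hbb-bh1* that passed were lost without dorsal replicate 1 (0.73 and 0.80) or dorsal replicate 2 (0.82 and 0.85), with adjusted p from 0.000692 to 0.462 and from 0.000207 to 0.292 over the alternatives.

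The brightest globin probe sets lay at the upper end of what the arrays reported. The highest value of any probe set was 14.93 to 15.02 on the 4 arrays, and both bright *Hbb-y* probe sets were within 1 log2 unit of it on every array, at gaps of 0.39 to 0.75. The bright *Hbb-bh1* probe sets were just outside that limit, with gaps of up to 1.08 and 1.07. RMA values carry no flags for scanner saturation, so saturation itself could not be read. The 37 other tested probe sets within 1 unit of the top, from 30 genes, all had higher means dorsally too, by 0.03 to 0.30 with a median of 0.13. The 0.26 of *Hbb-y* lies near the upper end of that range. With the quantiles set equal once more those 37 had a median difference of 0.00 and a range of -0.09 to 0.17, and the bright *Hbb-y* probe sets were at 0.12 and 0.10.

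**Figure D2:**
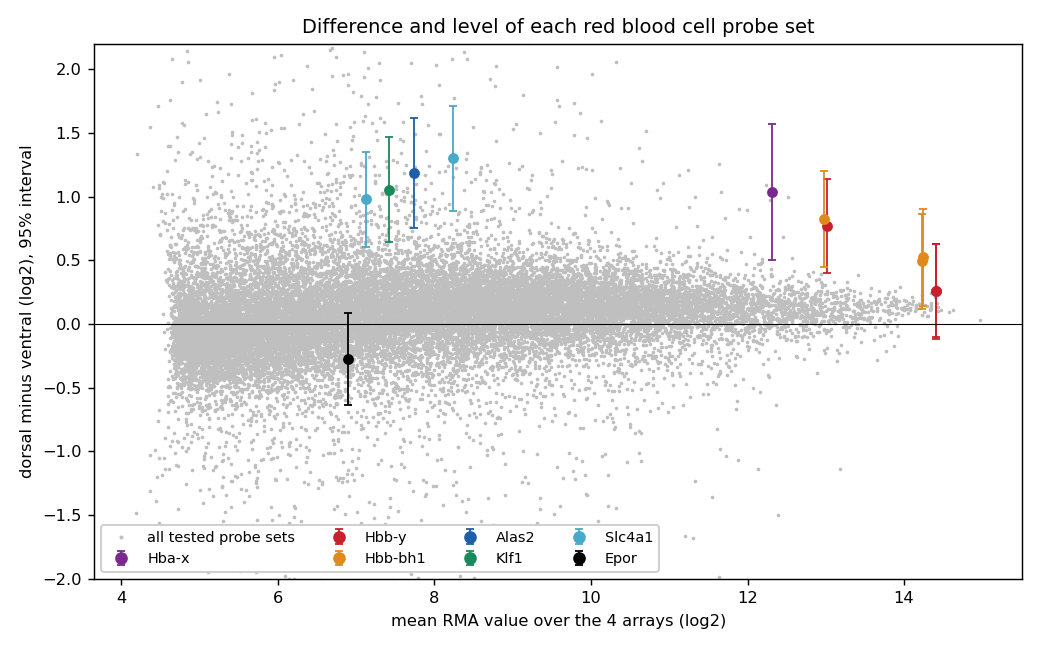
Dorsal minus ventral difference (log2, vertical axis) against the mean RMA value over the 4 arrays (log2, horizontal axis) for all tested probe sets (grey, those beyond -2 and 2.2 not drawn) and the 12 tested member probe sets (coloured by gene, bars are 95% intervals from limma). The globin differences are smaller toward the top of the scale, at 1.04 for *Hba-x* and 0.26 for the bright *Hbb-y* probe sets, and *Epor* alone lies below 0.

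The adult globin genes were measured mainly by probe sets that the annotation gives to several of them, so that none of these values belongs to 1 gene. They are outside the rule for members and were tested in a fit that also took in probe sets with several symbols or none, in which 4.74% of the 27578 probe sets above the filter passed as higher dorsally. All 3 probe sets shared by *Hba-a1* and *Hba-a2*, the adult alpha globin genes, passed. Their values were 13.11 and 12.96 dorsally, against 12.05 and 11.77 ventrally (1417714_x_at), 13.41 and 13.41, against 12.62 and 12.50 (1428361_x_at), and 13.84 and 13.66, against 13.05 and 12.76 (1452757_s_at). The differences of 1.12, 0.85 and 0.85 (adjusted p = 0.00308, 0.00976 and 0.0153 from limma) stand beside 1.04 for *Hba-x*, and their standard errors were 0.16 to 0.17. The probe set to which the annotation gives 4 adult beta globin symbols, 1417184_s_at, had 9.05 and 8.76 dorsally, against 8.23 and 8.22 ventrally. Its difference was 0.68 (adjusted p = 0.0405 from limma).

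The probe sets of single adult globin genes gave no such signal. The member *Hba-a1* (1453574_at) had 4.09 and 3.85 dorsally, against 3.98 and 4.41 ventrally, which was below the 40th percentile of all 4 arrays, and it was not tested. Both single-gene probe sets of *Hbb-b2*, an adult beta globin gene, were below that percentile too. That of *Hba-a2* (1427219_at) was at 6.76 and 6.55 dorsally, against 6.73 and 6.32 ventrally, and did not pass the test (difference 0.13, adjusted p = 0.785 from limma). With all arrays, embryonic alpha globin (the single probe set of *Hba-x*) and adult alpha globin (the shared probe sets) were thus both higher dorsally. The shared probe sets were not tested with an array left out.

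The remaining members are genes of red cell formation that are not globins. *Slc4a1* encodes band 3, the anion exchanger of the red cell membrane. Its probe set 1434502_x_at had 8.78 and 8.98 on the dorsal arrays, against 7.77 and 7.39 on the ventral arrays, a difference of 1.30 (standard error 0.18, 2.46-fold, adjusted p = 0.00151 from limma). Probe set 1416464_at had 7.69 and 7.55 dorsally, against 6.74 and 6.54 ventrally (0.98, 1.97-fold, adjusted p = 0.00497 from limma). The first of them passed at 0.05 under every alternative in which it was tested, with adjusted p up to 0.0233, and the other was lost without dorsal replicate 1 (0.91, adjusted p = 0.133). The remaining probe set, 1431743_a_at, was below the 40th percentile of all arrays at 3.50 to 3.76 and was not tested.

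*Alas2* encodes the erythroid form of the enzyme that opens heme synthesis. Its values were 8.18 and 8.49 dorsally, against 7.35 and 6.95 ventrally, without overlap, a difference of 1.19 (standard error 0.19, 2.28-fold, adjusted p = 0.00375 from limma). Without ventral replicate 2 it was 0.99 with an adjusted p of 0.0506, and the adjusted p ran from 7.84e-09 to that value over the alternatives. *Klf1* encodes a zinc finger transcription factor needed for globin expression and red cell maturation. It had 7.92 and 7.96 dorsally, against 7.11 and 6.66 ventrally, a difference of 1.06 (standard error 0.19, 2.08-fold, adjusted p = 0.00607 from limma). *Klf1* passed under all 16 alternatives in which it was tested, at differences of 0.83 to 1.28 and adjusted p up to 0.0486.

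*Epor*, which encodes the receptor for erythropoietin and is carried by early erythroid cells and also by endothelium, did not follow the other members. It had 6.70 and 6.83 on the dorsal arrays, against 6.98 and 7.09 on the ventral arrays, so that both dorsal values were the lower ones, as for 16.4% of all tested probe sets. The difference of -0.27 (95% interval -0.64 to 0.09) did not pass the test (adjusted p = 0.477 from limma). It was -0.20 to -0.38 under the alternatives, and none of them brought it past the threshold.

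**Figure D3:**
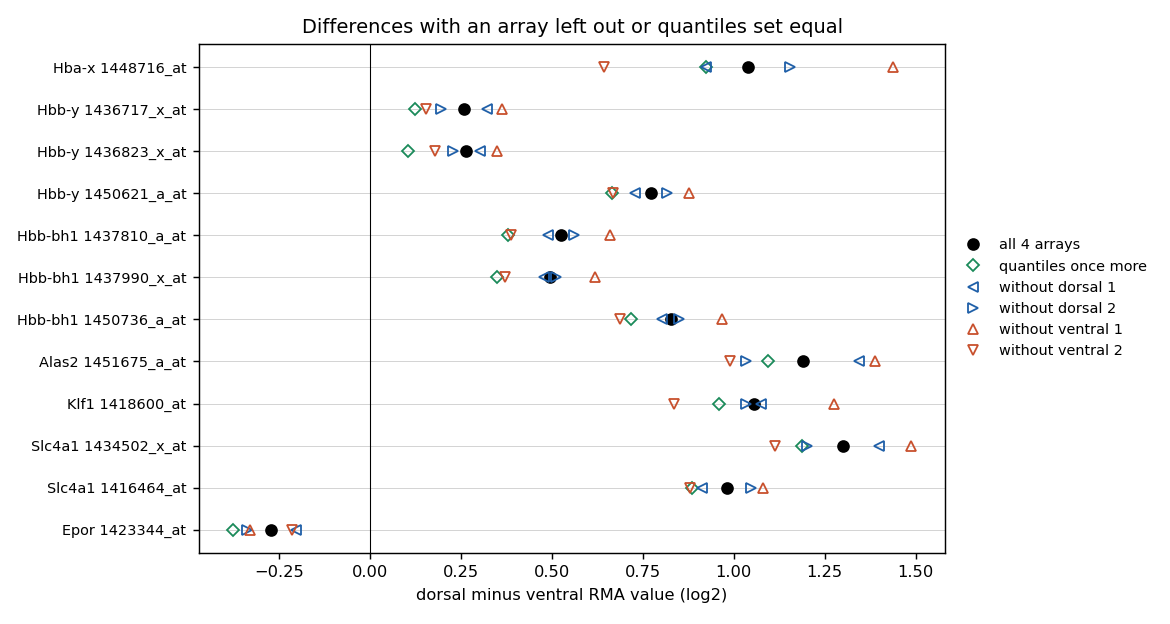
Dorsal minus ventral difference (log2, horizontal axis) of the 12 tested member probe sets (rows) with all 4 arrays (filled circles), with the quantiles set equal once more (diamonds) and with each array left out (triangles). *Hba-x* moves most, between 0.64 without ventral replicate 2 and 1.44 without ventral replicate 1, and no member changes sign.

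Promoters of the members are shown because most of these genes differed in the same direction. RefSeq's promoter table of GRCm38.p6 held 6 of the 9, and the 250 bases before the start site of 5 are printed 5′ to 3′, with GATAA (or TTATC, its reverse) and CCNCNCCC (or GGGNGNGG) in capitals. GATAA is the core that GATA1, a main erythroid transcription factor, is known to bind, and the other is a form of the CACCC box that KLF1 is known to bind. The letters were searched on both strands and allowed to overlap, and the choice was made after these sequences had been seen.
Hba-x, chr11:32276350-32276599 (+ strand): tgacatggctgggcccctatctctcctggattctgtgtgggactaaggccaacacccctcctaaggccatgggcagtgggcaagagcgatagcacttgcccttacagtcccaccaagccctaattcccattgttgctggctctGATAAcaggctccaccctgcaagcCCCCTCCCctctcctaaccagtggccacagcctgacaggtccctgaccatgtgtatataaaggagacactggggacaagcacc
Hbb-y, chr7:103853208-103853457 (- strand): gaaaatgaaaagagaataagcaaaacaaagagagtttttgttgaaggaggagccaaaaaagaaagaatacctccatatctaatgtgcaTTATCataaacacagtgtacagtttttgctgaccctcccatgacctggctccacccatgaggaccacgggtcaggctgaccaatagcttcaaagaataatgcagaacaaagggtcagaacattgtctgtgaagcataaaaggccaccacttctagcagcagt
Alas2, chrX:150547167-150547416 (+ strand): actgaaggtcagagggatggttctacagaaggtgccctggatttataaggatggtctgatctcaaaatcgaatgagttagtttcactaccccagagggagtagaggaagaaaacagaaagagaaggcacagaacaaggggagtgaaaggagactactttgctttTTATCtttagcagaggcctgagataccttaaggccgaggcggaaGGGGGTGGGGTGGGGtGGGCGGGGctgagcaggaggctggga
Klf1, chr8:84901732-84901981 (+ strand): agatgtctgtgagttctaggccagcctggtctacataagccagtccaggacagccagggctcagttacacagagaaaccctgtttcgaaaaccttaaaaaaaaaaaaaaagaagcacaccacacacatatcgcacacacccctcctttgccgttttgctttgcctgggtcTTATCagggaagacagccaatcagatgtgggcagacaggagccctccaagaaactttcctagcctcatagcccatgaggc
Epor, chr9:21963577-21963826 (- strand): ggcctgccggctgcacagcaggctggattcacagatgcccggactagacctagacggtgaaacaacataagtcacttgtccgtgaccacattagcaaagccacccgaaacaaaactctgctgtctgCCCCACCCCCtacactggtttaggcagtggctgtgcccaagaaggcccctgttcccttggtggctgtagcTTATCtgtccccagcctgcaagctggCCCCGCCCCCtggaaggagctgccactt

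All 6 promoters, that of *Hba-a1* included, held GATAA on a strand, which 22.6% of the 32851 promoters in the table did over the same length. CCNCNCCC was in those of *Hba-x*, *Alas2* and *Epor*, beside 45.9% of all promoters, with 4 matches each in *Alas2* and *Epor*. Those of *Alas2* lay 42, 40, 35 and 26 bases before the start, and those of *Epor* formed 2 overlapping pairs, at 124 and 122 and at 28 and 26. GATAA lay 107 bases before the start of *Hba-x*, 86 before that of *Alas2*, 80 before that of *Klf1* and 54 before that of *Epor*. It was farther away in *Hbb-y* (162 bases) and *Hba-a1* (182 bases). A match describes letters only, and no binding was measured.

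Genes of the same lineage outside the member list were followed in 5 lists. In these lists, with 121 tested probe sets of 63 genes, 7 probe sets passed as higher dorsally and 4 as higher ventrally, with a median difference of 0.10. These counts stand beside 3.28% and 2.56% of all tested probe sets and a median of 0.08. Leaving out dorsal replicate 1 gave 1 dorsal and 0 ventral probe sets, and leaving out dorsal replicate 2 gave 2 and 2. Leaving out ventral replicate 1 gave 38 and 17, in a setting in which 6739 and 2149 of all 22914 tested probe sets passed, and ventral replicate 2 gave 6 and 10.

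Among 30 probe sets of 15 genes for heme synthesis and iron, only *Slc25a37* passed, which encodes mitoferrin, the mitochondrial iron importer of erythroblasts. It had 9.24 and 9.21 dorsally, against 8.63 and 8.25 ventrally (0.79, adjusted p = 0.0270 from limma). The list had a median of 0.12, and its differences ran from -0.54 to 0.79. In 13 of the 30 both dorsal values lay above both ventral ones and in 4 below them. Genes of heme enzymes that did not pass included *Alad* (differences of 0.44 and 0.20), *Urod*, *Uros*, *Fech* and *Cpox*. The tested probe sets of *Cpox* had lower values on both dorsal arrays (-0.13 and -0.09). Of 22 probe sets for the red cell membrane, only *Ermap*, an erythroblast membrane protein gene, passed, at 7.48 and 7.54 dorsally, against 6.77 and 6.96 ventrally (0.64, adjusted p = 0.0499 from limma). The median of that list was 0.08, and its probe sets went both ways. Both dorsal values lay above both ventral ones in 9 of the 22 and below them in 6, beside 31.8% and 16.4% of all tested probe sets.

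Of 23 probe sets for other red cell genes, 2 passed as higher dorsally and the median was 0.24. *Hemgn*, which encodes the blood cell nuclear protein hemogen, had 8.55 and 8.48 dorsally, against 7.78 and 7.44 ventrally (0.91, adjusted p = 0.0111 from limma). *Trim10*, a gene of terminal erythroid differentiation, had 7.77 and 7.84 dorsally, against 7.10 and 6.99 ventrally (0.76, adjusted p = 0.0181 from limma).

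The 29 probe sets of 15 erythroid transcription factor genes went both ways, with a median of -0.27. Of these, 3 passed as higher dorsally and 4 as higher ventrally, beside 3.28% and 2.56% of all tested probe sets. In 9 both dorsal values lay above both ventral ones and in 15 below them, beside 31.8% and 16.4% of all. *Nfe2*, a factor for globin genes, had 5.88 and 5.54 dorsally, against 5.01 and 4.52 ventrally (0.94, adjusted p = 0.0221 from limma). *Sox6*, which acts in red cells and also in muscle, cartilage and neural cells, passed in 2 of its 3 tested probe sets with differences of 1.14 and 1.10. *Cbfa2t3*, a corepressor, had lower values on both dorsal arrays in all 4 of its probe sets, and 2 of them passed, with differences of -1.05 and -0.92. *Zfpm1*, the GATA cofactor FOG1, which also acts in the heart, had 7.02 and 7.14 dorsally, against 8.14 and 8.03 ventrally (95% interval of the difference -1.36 to -0.64, adjusted p = 0.00365 from limma), while its other probe set did not pass. *Lmo2*, an adaptor in blood and endothelium, was at 9.09 and 8.96, against 9.97 and 9.56 (-0.73, adjusted p = 0.0445 from limma). *Gata1*, the partner of FOG1, was at 7.77 and 7.51 dorsally, against 7.24 and 7.23 ventrally, without overlap, and did not pass (0.40, 95% interval 0.03 to 0.78, adjusted p = 0.271 from limma). *Tal1* did not pass either (-0.27, adjusted p = 0.484 from limma). None of the 17 probe sets for cytokine signalling passed by limma, of which 1 had an unadjusted p below 0.05.

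**Figure D4:**
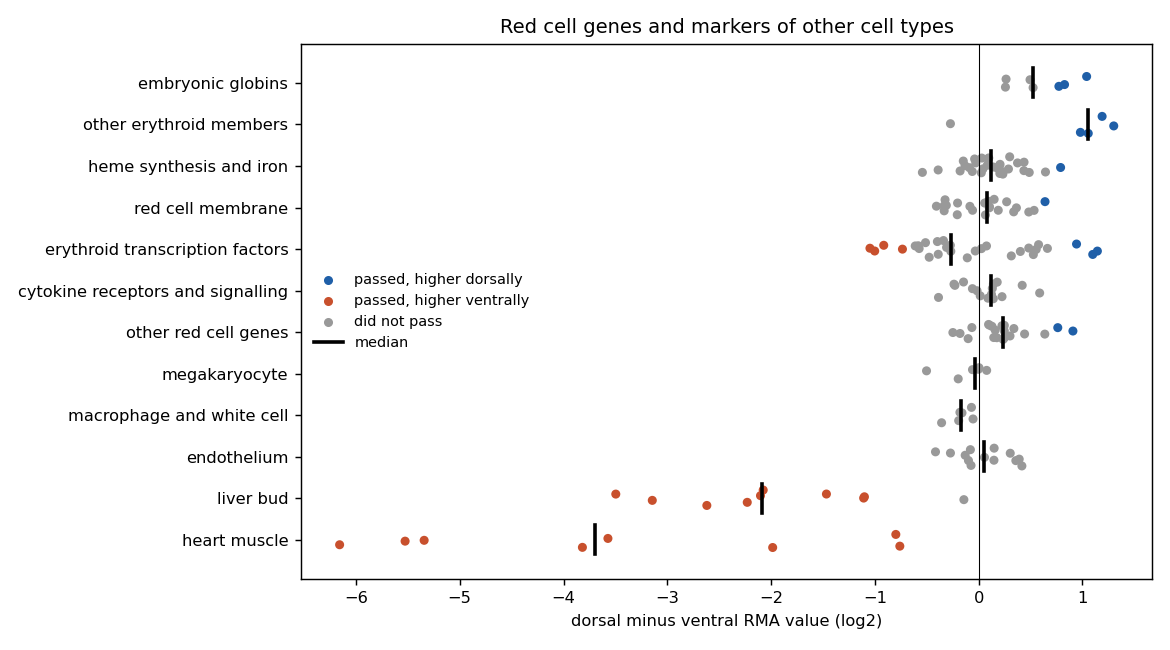
Dorsal minus ventral difference (log2, horizontal axis) of each tested probe set in the lists of red cell genes and of other cell types (rows), coloured by the limma result, and bars mark list medians. These are 0.52 for the embryonic globins and 1.06 for the other erythroid members, and they run from -0.27 to 0.24 in the wider red cell lists and from -3.70 to 0.06 in the lists of other cell types.

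No marker probe set of other blood cells or of vessels passed the test, where 5.84% of all tested probe sets did in either direction. At that share few would pass in lists this short, so these counts do not set the lists apart. None of 13 endothelial probe sets of 10 genes passed by limma (1 had an unadjusted p below 0.05, in the ventral direction), with a median of 0.06 and a summed level, as log2 of the summed unlogged values, of 11.63 to 11.64 dorsally, against 11.55 to 11.85 ventrally. None of 6 megakaryocyte probe sets passed (1 ventral at an unadjusted p below 0.05), at summed levels of 9.23 to 9.38 dorsally, against 9.35 to 9.38 ventrally. None of 6 macrophage and white cell probe sets passed (none at an unadjusted p below 0.05), with summed levels of 8.07 to 8.21, against 8.07 to 8.57, and both probe sets of *Ptprc*, the common white cell antigen, were below the 40th percentile of all arrays. Whether the red cell genes differ from these lists was not tested.

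Heart, liver and some foregut epithelial markers moved with the comparison in the other direction. All 8 tested heart muscle probe sets passed as higher ventrally, with summed levels of 11.13 to 11.15 dorsally, against 13.98 to 14.33 ventrally. So did 9 of 10 liver bud probe sets, at 10.18 to 10.19, against 12.25 to 12.46. Of these, 1 probe set of *Myh6*, 1 of *Tnnt2* and 1 of *Afp* exceeded the 40th percentile on the ventral arrays alone, so they could enter the test only by being high there. Of the 8 foregut epithelial probe sets, both of *Shh*, a signal made by the epithelium, passed as higher ventrally (-2.66 and -1.14, the dimmer one also above that percentile on the ventral arrays alone). That list had a median of -0.43 and summed levels of 11.91 to 11.92 dorsally, against 13.36 to 13.62 ventrally. Their part in the red cell result was not tested.

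The average pattern of the embryonic globin probe sets over the 4 arrays was also found in genes outside the red cell lists. Their values, centred on each probe set's mean and averaged over the 7 probe sets, were compared with those of every tested probe set by Euclidean distance. The nearest genes outside the red cell lists were *Ptgr1*, *Aff3*, *Errfi1*, *Chd7* and *Tshz3*, at distances of 0.02 to 0.03. Their differences were 0.60 to 0.62, and none of them passed the test (adjusted p = 0.0741 to 0.0811 from limma). The nearest red cell probe set, 1437810_a_at of *Hbb-bh1*, ranked 77th of 23336 although it entered that average. *Hba-x* ranked only 11780th and the bright *Hbb-y* probe sets 3701st and 4022nd, so the average does not stand for each globin probe set. This likeness rests on 4 arrays and is a description.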

How the data were processed

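Total RNA of each part was amplified in 2 cycles and labelled with biotin. The authors made the deposited values with RMA, whose version no source used here names, and their range shows a log2 scale. The values were not normalized further, and 4 arrays limit the precision. Probe sets were named with the platform annotation of GEO. Of 45101 probe sets 34958 had 1 symbol, 932 had several and 9211 had none, and 34754 identifiers were found in RefSeq's table of GRCm38.p6 without a change of symbol. Differences were fitted in R 4.3.3 by limma 3.58.1 (lmFit, then eBayes), on the 23336 probe sets with 1 symbol that 2 or more arrays placed above their 40th percentile. Benjamini-Hochberg adjustment ran over all of them with a threshold of 0.05, and the replicate number was not in the model. Standard errors and 95% intervals are the moderated ones. The fit was tested on simulated data. The alternatives were other filters, normalizations, units of the fit, eBayes settings, thresholds, a replicate block and the omission of each array. Differences within each replicate number were added after the data were seen. Genes named are the members, all globin genes, up to 4 genes that passed in each list with its defining markers, the 5 nearest genes by distance, and *Wnt4*, *Wnt2* and *Tbx4*. *Lmo2*, *Alad*, *Urod*, *Uros*, *Fech* and *Cpox* were outside this rule and were named after their values were seen. *Tbx4* differed by -0.94. The members and lists were chosen with earlier results of these data known.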

Additional observations from a re-analysis of the deposited data

How the results depend on the processing

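No tested member probe set changed sign under any alternative, the comparison within each replicate number included. The count of member probe sets that passed as higher dorsally was 7. It was 4 with the brightest probe set per gene, which takes the compared probe sets of *Hbb-y* and *Hbb-bh1* nearest to the top of the scale, 3 without probe sets that match several transcripts, where fewer members are tested, and 4 at a threshold of 0.01. Leaving out each array in turn gave 3 to 10, and none passed as higher ventrally in any setting. In the wider red cell lists, 7 dorsal and 4 ventral probe sets passed. The dorsal count was 4 with quantiles set equal once more, 4 without probe sets that match several transcripts, 1 at 0.01 and 12 at 0.10, the ventral count was 7 at 0.10, and leaving out arrays gave 1 to 38 dorsally and 0 to 17 ventrally. Over all probe sets, 765 passed as higher dorsally and 597 as higher ventrally. The dorsal count was 441 with probe sets averaged per gene and 1308 with every probe set of the array, a threshold of 0.01 gave 411 and 394, and leaving out arrays gave 296 to 6739 dorsally and 354 to 2149 ventrally. With 1 array left out, only the other part shows any spread, and the lone array is assumed to vary as much. The replicate numbers are not shown to pair the arrays, since there are only 2 of them, and the deviations of arrays of 1 number correlated at 0.21. The replicate block gave 8 member probe sets (a bright *Hbb-bh1* probe set passed at an adjusted p of 0.0497 from limma), 15 dorsal and 8 ventral in the wider lists, and 1389 dorsal and 937 ventral in all. The poly-A control RNAs were higher on the arrays numbered 2, by 1.94 dorsally and 1.63 ventrally, and within the numbers the differences of the members ran from 0.09 to 1.01 and from 0.39 to 1.59, *Epor* aside (-0.28 and -0.26). Averaging per gene gives no value for a single probe set.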
